A study of Mus musculus with 39 samples.

Results

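The genes described here are 9 genes of nitric oxide and cyclic GMP signalling in the mouse sciatic nerve, out of 55573 genes counted in the files. They are the nitric oxide synthase genes Nos1, Nos2 and Nos3, the soluble guanylyl cyclase subunit genes Gucy1a1, Gucy1a2 and Gucy1b1, the cyclic GMP-dependent protein kinase genes Prkg1 and Prkg2, and the phosphodiesterase gene Pde5a. They were taken as the core of the pathway, and Gucy1a2 was chosen because its counts were higher in injured Lepr-cKO nerves at both time points, so its values in injured nerves are given as a description without a test. All 9 passed the filter on low counts, which 18442 genes passed. In each comparison with injured nerves, counts of called genes are therefore out of the 8 other genes.

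Bulk RNA sequencing was performed on the endoneurium of the sciatic nerve, with the perineurium stripped off, from C57BL/6 mice of both sexes aged 2 to 4 months. Both genotypes carried homozygous floxed Lepr, the leptin receptor gene. Lepr-ctrl mice were Lepr fl/fl alone, and Lepr-cKO mice were Lepr fl/fl with Dhh-Cre, a Cre driven by Dhh regulatory sequences of the Schwann cell lineage. The deletion takes out exon 1 of Lepr, and a truncated receptor transcript is still made. One sciatic nerve of each mouse was crushed (injured), and its uncrushed nerve on the other side served as healthy, so no nerve came from a mouse without a crush. At 2 weeks post-crush (wpc) there were 5 healthy and 5 injured Lepr-ctrl nerves and 6 healthy and 5 injured Lepr-cKO nerves. At 4 wpc there were 5 healthy and 4 injured nerves of each genotype. The 39 libraries came from 22 mice, 17 of which gave both nerves. Animals are named as in the sample titles, where the prefix SLRKO2wpc marks mice of both genotypes at 2 wpc.

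Total counts were 10905806 to 45016322 per library, with a median of 27752451. Lepr itself was measured at 20.8 to 121 CPM (counts scaled to the library size after TMM normalization) in injured and 5.79 to 14.7 CPM in healthy nerves, with both genotypes overlapping in each nerve and time, so a count over the whole gene does not check the loss of exon 1. The Schwann cell marker Sox10 was present in every library. Among the injured nerves at 2 wpc, 3 libraries stood apart. The Lepr-cKO library of animal SLRKO2wpc126 held 46686 CPM of 10 skeletal muscle markers, against at most 35.9 CPM in any other library. Mitochondrially encoded genes took 1.92 to 4.25% of the counts in healthy and 2.95 to 33.0% in injured nerves, a difference whose part in the results was not tested beyond leaving these genes out of the normalization, which changed no call of the 9 genes. They took 29.7% of the counts of Lepr-cKO animal SLRKO2wpc135 and 33.0% of those of Lepr-ctrl animal SLRKO2wpc144. Values without these libraries are given where a call or the size of a change rests on them.

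Nitric oxide is made from arginine by the nitric oxide synthases. It binds the heme of soluble guanylyl cyclase, a heterodimer of an α and a β subunit, which then makes cyclic GMP from GTP. Cyclic GMP activates cyclic GMP-dependent kinases and gated channels, and phosphodiesterases such as PDE5 break it down. In peripheral nerve, NOS3 is known from the endothelium of vessels, NOS1 from neurons and NOS2 from activated macrophages, and the cyclase with PDE5 is best known from the contractile cells of vessel walls.

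Gucy1a1 and Gucy1b1, which encode the α1 and β1 subunits, lie next to each other on the minus strand of chromosome 3 (GRCm38, 82092427 to 82145789 and 82032006 to 82074689), 17737 bases apart. Gucy1a2, the gene of the α2 subunit, lies on the plus strand of chromosome 9 (3532778 to 3894736). Their promoter sequences are shown because the α1 and β1 genes moved together across libraries, while the α2 gene was the one chosen for its difference between genotypes. The windows run from 250 bases before to 50 bases after a RefSeq transcript start on GRCm38.p6, and RefSeq windows matched 6 of the 9 genes. Capitals mark 2 motifs searched on both strands. The first is the CCAAT box, searched by those letters. The second is the GC box, searched as GGGCGG. A match on the opposite strand appears in capitals as its reverse complement, which for the CCAAT box is ATTGG. No match of one overlapped a match of the other.
Gucy1a1, chr3:82145601-82145900, minus strand: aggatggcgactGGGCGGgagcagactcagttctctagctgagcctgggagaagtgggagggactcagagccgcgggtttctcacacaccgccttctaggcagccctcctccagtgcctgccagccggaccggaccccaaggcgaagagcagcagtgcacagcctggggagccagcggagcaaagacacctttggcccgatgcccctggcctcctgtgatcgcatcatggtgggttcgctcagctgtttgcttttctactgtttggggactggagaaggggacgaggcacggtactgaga
Gucy1b1, chr3:82074662-82074961, minus strand: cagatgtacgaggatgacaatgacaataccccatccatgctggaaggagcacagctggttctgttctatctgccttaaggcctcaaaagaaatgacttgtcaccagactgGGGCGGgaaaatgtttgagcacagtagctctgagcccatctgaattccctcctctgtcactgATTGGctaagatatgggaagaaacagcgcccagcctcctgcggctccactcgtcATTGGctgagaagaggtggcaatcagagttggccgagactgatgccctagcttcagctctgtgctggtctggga
Gucy1a2, chr9:3532099-3532398, plus strand: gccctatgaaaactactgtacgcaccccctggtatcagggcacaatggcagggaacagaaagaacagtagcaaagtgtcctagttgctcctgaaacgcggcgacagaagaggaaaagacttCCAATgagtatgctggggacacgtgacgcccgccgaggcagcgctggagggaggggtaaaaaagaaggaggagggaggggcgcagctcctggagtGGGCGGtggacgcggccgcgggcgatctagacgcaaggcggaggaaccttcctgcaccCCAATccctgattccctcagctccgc
The window of Gucy1a1 held 1 GGGCGG and no CCAAT, and its second window held neither. Gucy1b1 had 1 GGGCGG and 2 CCAAT on the opposite strand, and Gucy1a2 had 1 GGGCGG and 2 CCAAT on the strand shown. Of 32841 windows of 300 bases, 37.4% held CCAAT and 35.7% held GGGCGG, so both motifs are common and their presence is a description of the letters only. The base composition was 62.3% G and C in the Gucy1a1 window, 52.3% in that of Gucy1b1 and 60.0% in that of Gucy1a2. The RefSeq start of Gucy1a2 lies upstream of the gene start in the annotation used for the counts.

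Levels of different genes were compared as RPKM, the CPM divided by the exon length in kilobases. In healthy Lepr-ctrl nerves at 2 wpc, Pde5a had 3.39 ± 0.609 RPKM (SD, n = 5) and Gucy1b1 3.02 ± 0.532 RPKM, which did not differ beyond their spread. Gucy1a1 followed with 1.93 ± 0.184 RPKM, Nos3 with 1.69 ± 0.773 RPKM, Prkg1 with 1.28 ± 0.156 RPKM and Nos1 with 1.26 ± 0.112 RPKM, neighbours that lay within 1 SD of each other. Gucy1a2 at 0.0549 ± 0.0179 RPKM, Prkg2 at 0.0508 ± 0.0580 RPKM and Nos2 at 0.0477 ± 0.0280 RPKM were all far lower and not distinguishable from one another. After crush the order changed. In injured Lepr-ctrl nerves at 2 wpc, Nos3 led with 10.5 ± 5.45 RPKM (SD, n = 5), followed by Prkg1 at 2.67 ± 1.60 RPKM, Pde5a at 1.27 ± 0.379 RPKM and Gucy1b1 at 1.21 ± 0.513 RPKM. Nos1, at 0.156 ± 0.0756 RPKM, had moved into the low group beside Prkg2 at 0.240 ± 0.0944 RPKM. 

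**Figure D1:**
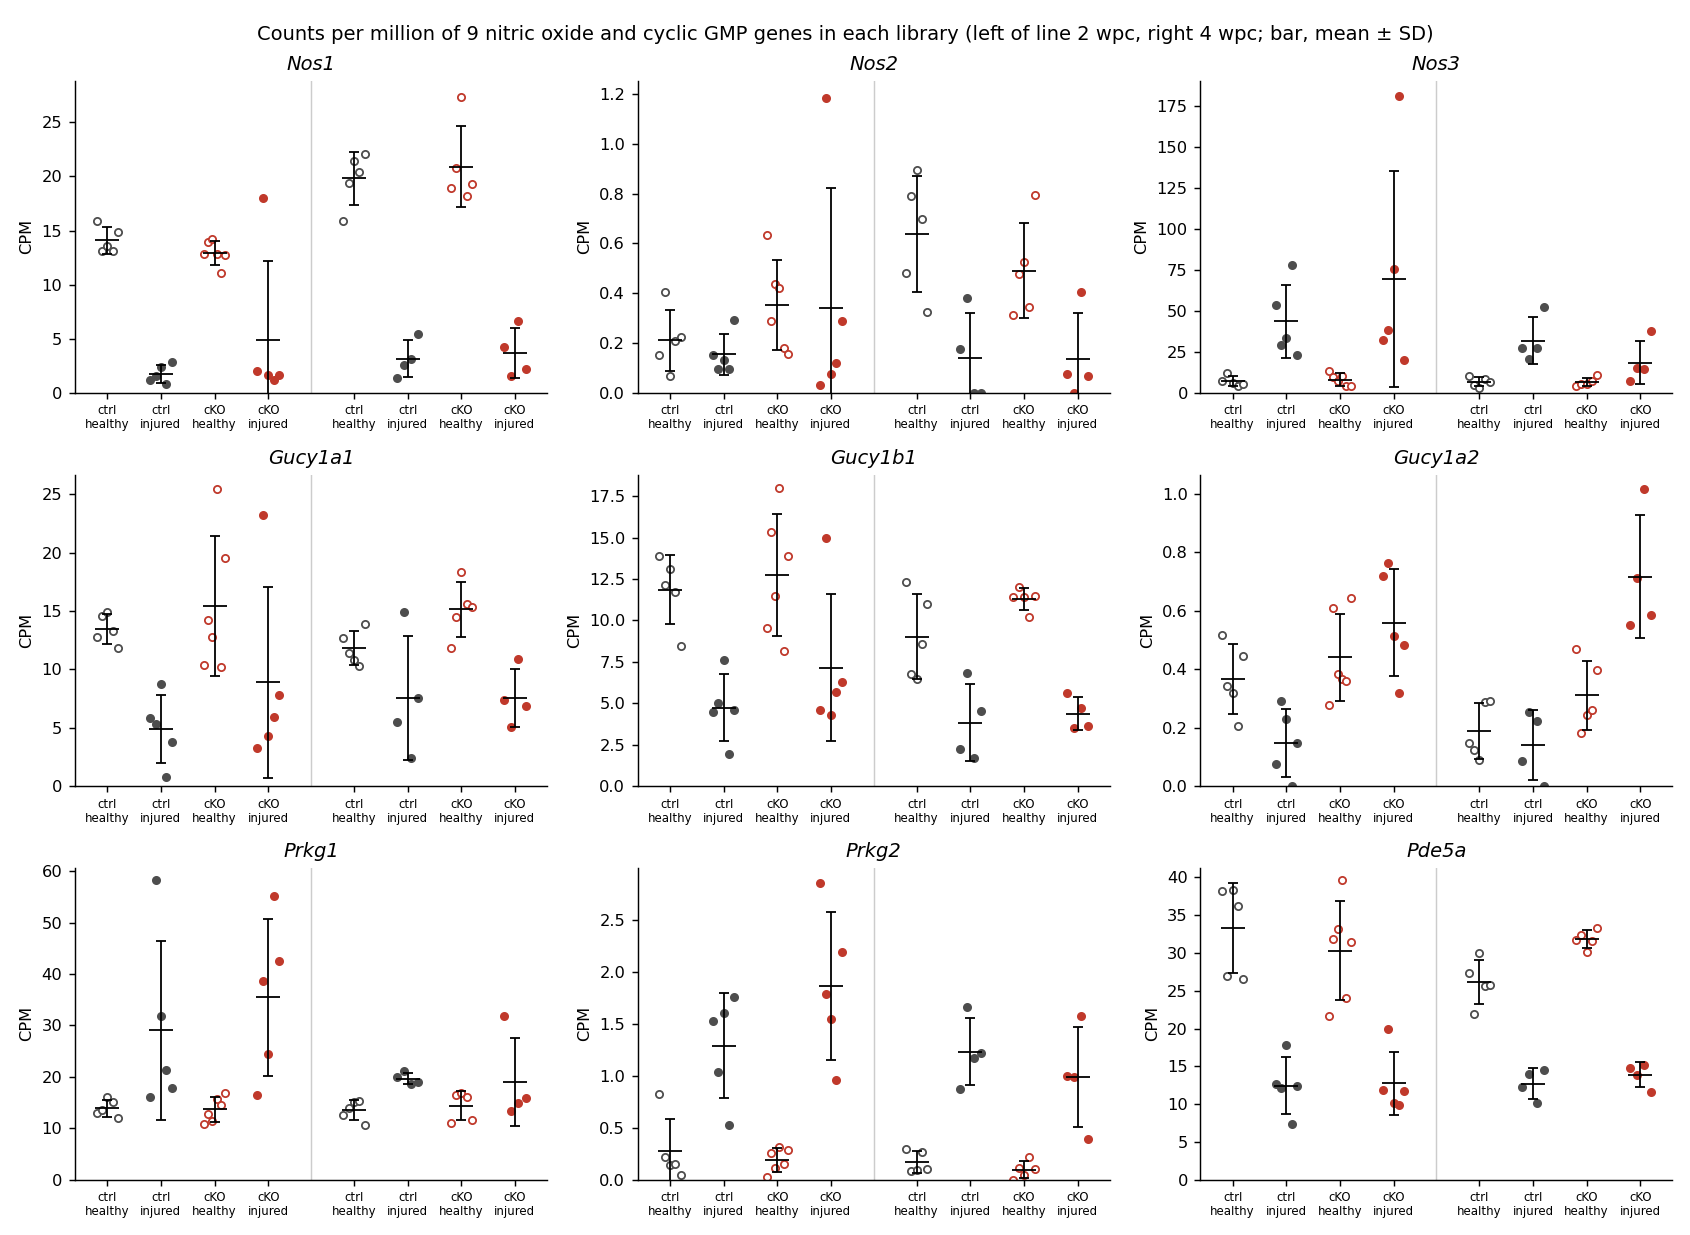
CPM of each of the 9 genes in every library, by genotype and nerve, with 2 wpc left and 4 wpc right of the line in each panel. Open circles are healthy and filled circles injured nerves, grey is Lepr-ctrl and red Lepr-cKO, and the bar is the mean ± SD. Nos3 and Prkg2 were higher and Nos1 and Pde5a lower in injured nerves in every comparison, and animal SLRKO2wpc126 is the high red point among injured nerves at 2 wpc for Nos1, Nos2, Gucy1a1 and Gucy1b1.

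Most of these genes changed with crush. Genes were called at an adjusted p under 0.05 (edgeR's quasi-likelihood test with Benjamini-Hochberg adjustment over 18442 genes) and an absolute log2 fold change above 1. In Lepr-ctrl nerves at 2 wpc, 7 of 8 genes were called, with Nos3, Prkg1 and Prkg2 higher and Gucy1a1, Gucy1b1, Nos1 and Pde5a lower. Of all genes tested there, 19.8% were called higher, against 14.3% lower. In Lepr-cKO nerves at 2 wpc, 5 of 8 were called, with the same 3 genes higher and Nos1 and Pde5a lower, against 20.9% higher and 13.4% lower calls among all genes. At 4 wpc, 6 of 8 were called in Lepr-ctrl nerves (Nos3 and Prkg2 higher; Gucy1b1, Nos1, Nos2 and Pde5a lower), where 20.1% of all genes were called higher against 15.9% lower. At 4 wpc, 5 of 8 were called in Lepr-cKO nerves (Nos3 and Prkg2 higher; Gucy1b1, Nos1 and Pde5a lower), against 16.8% and 10.8% of all genes. Nos3, Prkg2, Nos1 and Pde5a were called in all 4 comparisons. Without injured animal SLRKO2wpc126, 8 of 8 were called in Lepr-cKO nerves at 2 wpc, and without injured animal WT-173, 3 of 8 in Lepr-ctrl nerves at 4 wpc. The 8 genes were chosen with these results known, so the counts describe them and carry no test against other genes.

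Among the synthases, Nos3, named the endothelial enzyme, rose and Nos1, named the neuronal enzyme, fell. In Lepr-ctrl mice at 2 wpc, Nos3 was measured at 4.10, 4.98, 6.14, 7.37 and 12.2 CPM in the healthy nerves and at 23.2, 28.9, 33.3, 53.6 and 78.1 CPM in the injured nerves. The groups did not overlap, and the log2 fold change was 2.64 ± 0.502 (SE; adjusted p = 2.64e-05), that is 6.21-fold. The highest injured value belonged to animal SLRKO2wpc144, without which the change was 2.32. In the Lepr-cKO mice of that time, Nos3 in healthy nerves ranged from 3.76 to 13.2 CPM with a median of 8.28 CPM, and injured nerves had 19.8, 32.2, 38.1, 75.6 and 181 CPM. The groups were again apart, with a log2 fold change of 3.12 ± 0.474 (SE; adjusted p = 7.07e-07), and the highest library was animal SLRKO2wpc135, without which the change was 2.37. At 4 wpc the healthy Lepr-ctrl nerves had 3.13 to 10.4 CPM and the injured ones 20.3, 27.1, 27.2 and 52.4 CPM, apart by a log2 fold change of 2.23 ± 0.517 (SE; adjusted p = 0.000350). At 4 wpc the injured Lepr-cKO values were 6.87, 14.3, 15.05 and 37.3 CPM against 4.21 to 10.7 CPM in healthy nerves. Here the groups overlapped, the log2 fold change was 1.48 ± 0.513 (SE; adjusted p = 0.0144), and without animal KO-177 it was 0.87 and no longer called.

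Nos3 shares exon bases with other genes. The antisense gene Gm15587 covers 25.2% and Atg9b, on the opposite strand, 7.12% of the exon bases of Nos3, and the strand setting of the counting is not given in the sources used here. At most 155 counts were assigned to Gm15587 in any library, in animal SLRKO2wpc135, where Nos3 had 4542 counts. Over the 39 libraries, the deviations of Nos3 from its group means followed those of Gm15587 with Pearson's r = 0.751 (permutation p = 4e-05), Spearman's rho = 0.687 (permutation p = 8e-05) and r = 0.653 without the 2 farthest libraries, a single relation computed after the others. Reads of Nos3 and of Gm15587 cannot be told apart in their shared bases, and the part of this overlap in the Nos3 result was not tested. In these bulk samples, a change in the number of cells of a type and a change in RNA per cell cannot be told apart. Endothelial markers (Pecam1, Cdh5, Kdr, Tek, Tie1, Cldn5, Egfl7 and Emcn) moved with Nos3. Their summed level was 482 to 553 CPM in healthy and 842 to 1562 CPM in injured Lepr-ctrl nerves at 2 wpc, and 402 to 749 CPM and 624 to 3076 CPM in Lepr-cKO nerves. At 4 wpc it was 368 to 590 CPM and 1082 to 1660 CPM in Lepr-ctrl nerves, and 454 to 664 CPM and 514 to 1762 CPM in Lepr-cKO nerves. Of the 8 markers, 4, 6, 6 and 2 were called higher with injury in Lepr-ctrl at 2 wpc, Lepr-cKO at 2 wpc, Lepr-ctrl at 4 wpc and Lepr-cKO at 4 wpc, none was called lower, and none was at 0 in any library. The shares of all genes called higher there were 19.8, 20.9, 20.1 and 16.8%, and 2 of 8 is near the last of them. Across the 39 libraries, the deviations of Nos3 from its group means followed those of the endothelial sum, with Pearson's r = 0.760 (permutation p = 3e-05, adjusted over the relations of 9 genes with 14 library measures 0.00176) and Spearman's rho = 0.683 (permutation p = 5e-05, adjusted 0.00315). Without the 2 libraries farthest from the median of the endothelial sum, r was 0.649. Nos3 was not tied to this sum alone. It went against the sums of myelin (r = -0.575) and Schwann lineage markers (r = -0.547). It went with the share of mitochondrially encoded counts (r = 0.523). The permutations were made within groups, and the nerves of 17 mice enter as pairs. The part of endothelial content in the Nos3 result was not tested further.

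Nos1 showed the steepest fall of the 8 genes in Lepr-ctrl nerves. At 2 wpc its values were 13.1, 13.1, 13.6, 14.8 and 15.9 CPM in healthy and 0.759, 1.18, 1.58, 2.35 and 2.82 CPM in injured Lepr-ctrl nerves. These groups lay far apart, with a log2 fold change of -3.00 ± 0.505 (SE; adjusted p = 3.98e-06), 8.01-fold lower after injury. In Lepr-cKO mice the healthy nerves had 11.04 to 14.2 CPM, with a median of 12.8 CPM, and the injured nerves 1.20, 1.65, 1.67, 1.99 and 18.0 CPM. The last value was that of animal SLRKO2wpc126, the library with skeletal muscle transcripts, and it alone overlapped the healthy nerves. With it the log2 fold change was -1.39 ± 0.452 (SE; adjusted p = 0.00771), and without it -2.97. At 4 wpc Nos1 fell from 15.9 to 22.1 CPM in healthy to 1.39, 2.55, 3.12 and 5.44 CPM in injured Lepr-ctrl nerves (log2 fold change -2.68 ± 0.549 SE; adjusted p = 7.70e-05). Its fall in Lepr-cKO nerves of that time was from 18.2 to 27.3 CPM to 1.59, 2.22, 4.26 and 6.65 CPM (log2 fold change -2.49 ± 0.532 SE; adjusted p = 0.000175), with no overlap at either genotype. Which cells of the nerve held the Nos1 RNA was not tested.

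Nos2, the inducible enzyme of activated macrophages, stayed near the limit of detection. It had at most 9 counts in any other injured library and 42 counts in that of animal SLRKO2wpc126. At 2 wpc the log2 fold change was -0.41 ± 0.740 (SE; adjusted p = 0.638) in Lepr-ctrl and -0.02 ± 0.620 (SE; adjusted p = 0.978) in Lepr-cKO nerves, and without animal SLRKO2wpc126 the latter was -1.43 and called. At 4 wpc, injured Lepr-ctrl nerves had 0, 0, 0.174 and 0.382 CPM against 0.324, 0.482, 0.698, 0.792 and 0.895 CPM in healthy nerves. A count of 0 allowed up to 0.167 CPM in animal WT-173 and 0.282 CPM in animal WT-178. The log2 fold change was -2.12 ± 0.851 (SE; adjusted p = 0.0297), and the call was lost without healthy animal WT-171 (-1.97), injured animal WT-173 (-1.64) or injured animal WT-178 (-1.80), while without injured animal WT-171 the change was -3.53. In Lepr-cKO nerves at 4 wpc it was -1.83 ± 0.808 (SE; adjusted p = 0.0538), not called, but called without healthy animal KO-169 (-1.95), healthy animal KO-177 (-1.94) or injured animal KO-176 (-3.26). Macrophage markers, by contrast, summed to 760 to 3728 CPM in injured and 106 to 376 CPM in healthy nerves.

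The cyclase genes Gucy1a1 and Gucy1b1 fell together in Lepr-ctrl nerves at 2 wpc. Gucy1b1 was measured at 8.46, 11.7, 12.1, 13.1 and 13.9 CPM in healthy and at 1.95, 4.50, 4.62, 5.03 and 7.61 CPM in injured nerves. All injured values lay below all healthy values, and the log2 fold change was -1.32 ± 0.321 (SE; adjusted p = 0.000573). Gucy1a1 went from 11.8, 12.8, 13.3, 14.5 and 14.9 CPM to 0.759, 3.81, 5.28, 5.83 and 8.72 CPM, also without overlap (log2 fold change -1.46 ± 0.433 SE; adjusted p = 0.00389). The lowest injured value of both genes belonged to animal SLRKO2wpc144, without which the changes were -1.12 and -1.19 and both were still called. Neither gene was called in Lepr-cKO nerves at 2 wpc. Gucy1b1 had 8.18 to 18.0 CPM in healthy nerves and 4.30, 4.58, 5.66, 6.26 and 14.98 CPM in injured nerves (log2 fold change -0.83 ± 0.304 SE; adjusted p = 0.0172), below the fold threshold. Gucy1a1 had 10.2 to 25.5 CPM and 3.28, 4.30, 5.90, 7.77 and 23.2 CPM (log2 fold change -0.79 ± 0.407 SE; adjusted p = 0.0860). For both genes the highest injured value, and the only one to overlap the healthy nerves, was that of animal SLRKO2wpc126, without which the changes were -1.27 and -1.52 and both were called. With the animal as a block they were -1.06 and -1.22, and both were called there too.

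At 4 wpc Gucy1b1 was called lower in both genotypes. It had 6.45, 6.75, 8.60, 10.97 and 12.3 CPM in healthy and 1.73, 2.26, 4.51 and 6.82 CPM in injured Lepr-ctrl nerves, a log2 fold change of -1.24 ± 0.357 (SE; adjusted p = 0.00311). Its groups overlapped in 1 injured nerve, and without injured animal WT-173 the change was -0.98, under the fold threshold. In Lepr-cKO nerves it fell from 10.2 to 12.1 CPM to 3.50, 3.65, 4.72 and 5.62 CPM (log2 fold change -1.36 ± 0.350 SE; adjusted p = 0.00132), without overlap. Gucy1a1 was not called at 4 wpc. Its log2 fold change was -0.64 ± 0.462 (SE; adjusted p = 0.227) in Lepr-ctrl nerves, where the injured values were 2.40, 5.49, 7.51 and 14.9 CPM, and it was -1.24 and called without the highest of these, animal WT-171. In Lepr-cKO nerves it was -1.001 ± 0.460 (SE; adjusted p = 0.0634) although healthy and injured nerves did not overlap, -1.24 and called without animal KO-176, and -1.03 and called with the animal as a block.

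Pde5a, which encodes the phosphodiesterase that ends the cyclic GMP signal, was lower in all 4 comparisons with the smallest errors among the 9 genes. At 2 wpc it had 26.6, 27.0, 36.3, 38.2 and 38.4 CPM in healthy and 7.31, 12.1, 12.4, 12.6 and 17.8 CPM in injured Lepr-ctrl nerves. Healthy and injured nerves did not overlap in any of the comparisons. The log2 fold changes were -1.42 ± 0.183 (SE; adjusted p = 3.33e-08) and -1.25 ± 0.176 (SE; adjusted p = 1.84e-07) in Lepr-ctrl and Lepr-cKO nerves at 2 wpc. At 4 wpc they were -1.04 ± 0.199 (SE; adjusted p = 2.72e-05) and -1.19 ± 0.197 (SE; adjusted p = 4.84e-06), and the Lepr-ctrl value was just under the fold threshold without healthy animal WT-171 (-0.99) or injured animal WT-173 (-0.95).

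The genes of the α1 and β1 subunits and of PDE5 also varied together between libraries of the same group. Deviations from the group means over 39 libraries gave r = 0.888 (permutation p = 1e-05, the smallest that 100000 resamples can give; adjusted over 36 relations 0.00018) and rho = 0.815 (permutation p = 2e-05, adjusted 0.00072) for Gucy1a1 with Gucy1b1, and r = 0.840 without the 2 farthest libraries. For Gucy1b1 with Pde5a, r was 0.805 (permutation p = 1e-05, adjusted 0.00018) and rho 0.748 (permutation p = 4e-05, adjusted 0.00072), with r = 0.705 without the 2 farthest libraries. The summed level of 10 pericyte and smooth muscle markers moved the same way. It was 608 to 722 CPM in healthy and 105 to 503 CPM in injured Lepr-ctrl nerves at 2 wpc, and 529 to 844 CPM and 264 to 1013 CPM in Lepr-cKO nerves. At 4 wpc it was 491 to 754 CPM and 232 to 467 CPM in Lepr-ctrl nerves, and 641 to 831 CPM and 246 to 427 CPM in Lepr-cKO nerves. Of the 10 markers, 5, 3, 5 and 5 were called lower in the 4 comparisons, in the order given above, Cnn1 was called higher in all but the last, and none was at 0 in any library. The shares of all genes called lower there were 14.3, 13.4, 15.9 and 10.8%. The highest injured sum, 1013 CPM, was in animal SLRKO2wpc126 and the lowest, 105 CPM, in animal SLRKO2wpc144, the same libraries that held the highest and lowest Gucy1a1 among injured nerves. The sum followed Gucy1b1 with r = 0.862 (permutation p = 1e-05, adjusted over the same relations with library measures 0.00126) and rho = 0.814 (permutation p = 1e-05, adjusted 0.00126), and r was 0.801 without the 2 farthest libraries. The relation was not limited to these markers. Gucy1b1 also followed the sums of perineurial (r = 0.646) and adipocyte markers (r = 0.560), and Gucy1a1 did so too (r = 0.587 and 0.670). Whether the fall of these genes followed the content of pericytes and smooth muscle or of other cells was not tested further.

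**Figure D2:**
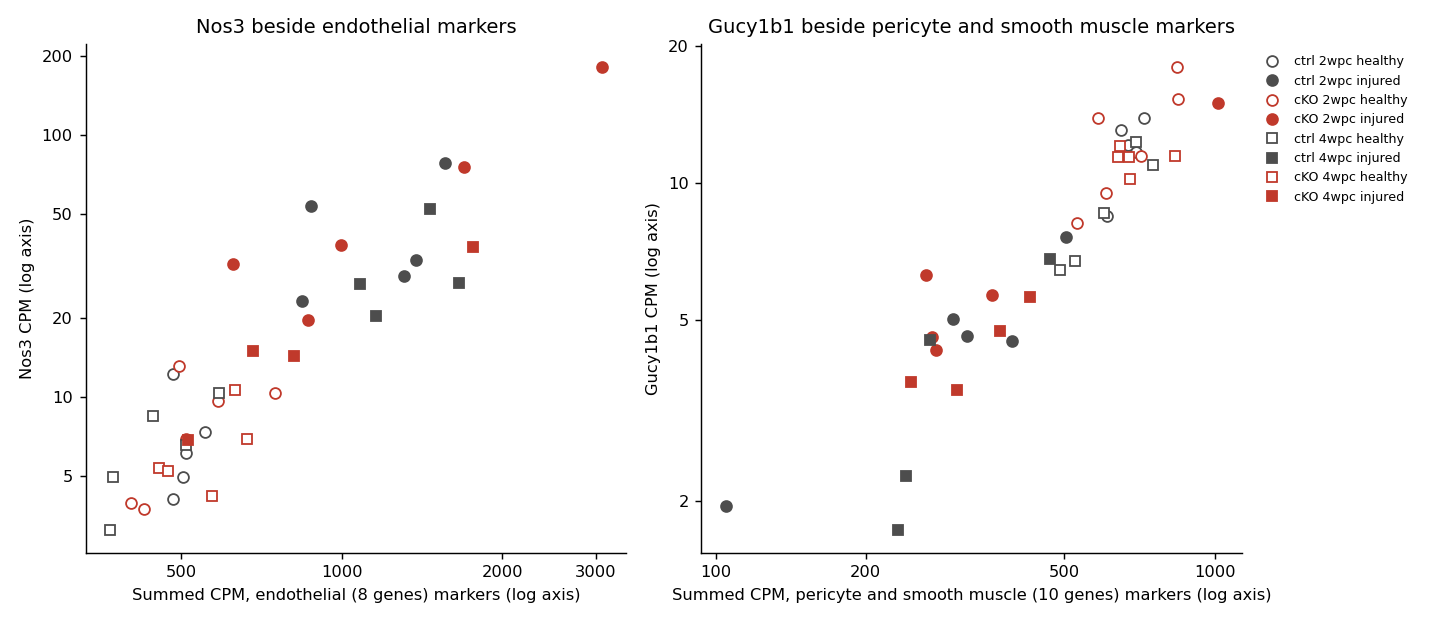
Left, Nos3 in CPM against the summed CPM of 8 endothelial markers; right, Gucy1b1 in CPM against the summed CPM of 10 pericyte and smooth muscle markers, both on log axes. Each point is a library, with open symbols for healthy, filled for injured, circles for 2 wpc, squares for 4 wpc, grey for Lepr-ctrl and red for Lepr-cKO. Most injured nerves lie to the upper right on the left, where those of Lepr-cKO mice at 4 wpc overlap the healthy nerves on both axes, and most lie to the lower left on the right, and the injured Lepr-cKO library at 1013 CPM on the right is animal SLRKO2wpc126.

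Both kinase genes were higher in injured nerves at 2 wpc. Prkg2, the type II kinase, was nearly absent from healthy nerves. In Lepr-ctrl mice at 2 wpc it had 0.0445, 0.136, 0.148, 0.217 and 0.819 CPM in healthy and 0.522, 1.03, 1.52, 1.60 and 1.76 CPM in injured nerves. Only the healthy nerve of animal SLRKO2wpc120, with 27 counts, overlapped the injured ones. The log2 fold change was 2.21 ± 0.525 (SE; adjusted p = 0.000442), and 3.17 without that library. Healthy Lepr-cKO nerves at 2 wpc were at most 0.310 CPM and injured values 0.957, 1.54, 1.78, 2.18 and 2.85 CPM, a log2 fold change of 3.28 ± 0.507 (SE; adjusted p = 9.00e-07). At 4 wpc healthy nerves had at most 0.297 CPM in Lepr-ctrl and 0.216 CPM in Lepr-cKO mice, and injured nerves had 0.871, 1.17, 1.22 and 1.66 CPM and 0.391, 0.985, 0.992 and 1.57 CPM. The groups were apart in both genotypes, with log2 fold changes of 2.81 ± 0.594 (SE; adjusted p = 0.000111) and 3.37 ± 0.638 (SE; adjusted p = 3.68e-05). Prkg2 rested on 6 to 99 counts per injured library and 0 to 27 per healthy library.

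Prkg1, the type I kinase of smooth muscle and of sensory neurons, had a higher RPKM than Prkg2 in every group and a smaller change. In Lepr-ctrl nerves at 2 wpc it had 11.9 to 16.1 CPM in healthy and 16.1, 17.8, 21.3, 31.8 and 58.2 CPM in injured nerves, a log2 fold change of 1.07 ± 0.276 (SE; adjusted p = 0.00107). This call rested on the highest library, animal SLRKO2wpc130, without which the change was 0.66, and it was 0.95, under the fold threshold, with the animal as a block. Injured Lepr-cKO nerves at 2 wpc had Prkg1 values of 16.4, 24.5, 38.7, 42.5 and 55.1 CPM against 10.8 to 16.9 CPM, a log2 fold change of 1.37 ± 0.261 (SE; adjusted p = 2.57e-05). Without animals SLRKO2wpc126, SLRKO2wpc135 and SLRKO2wpc144 it was 1.02, just above the fold threshold. At 4 wpc Prkg1 was not called, with 0.54 ± 0.293 (SE; adjusted p = 0.107) in Lepr-ctrl and 0.41 ± 0.291 (SE; adjusted p = 0.235) in Lepr-cKO nerves on the log2 scale, although all 4 injured Lepr-ctrl nerves, at 18.5 to 21.03 CPM, lay above the 5 healthy ones.

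**Figure D3:**
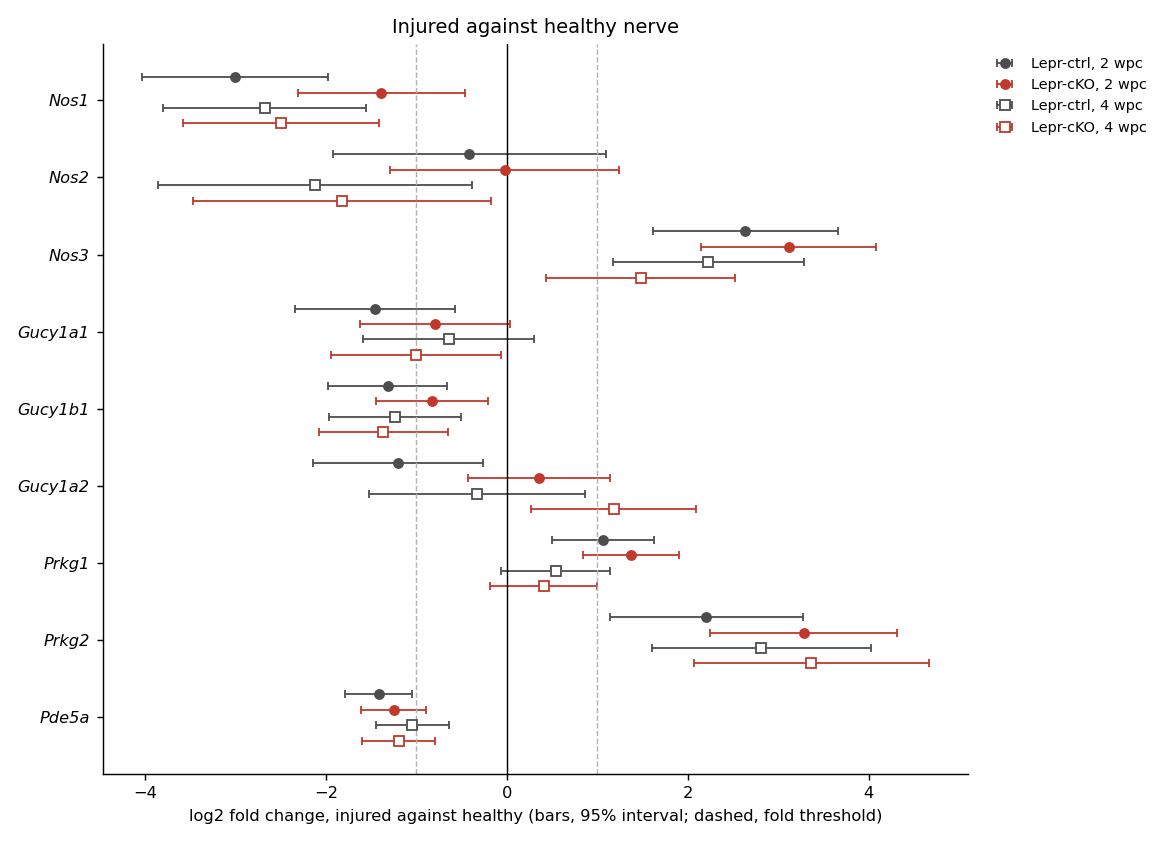
Log2 fold change of injured against healthy nerves for the 9 genes, with 95% intervals, in Lepr-ctrl (grey) and Lepr-cKO (red) mice at 2 wpc (filled circles) and 4 wpc (open squares). Dashed lines mark a log2 fold change of 1 in either direction. Nos3 and Prkg2 lie right of the upper line and Nos1 and Pde5a left of the lower line in every comparison. Gucy1a2, which was chosen by its values in injured nerves, is drawn for description, and its intervals are no test.

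Gucy1a2 was the gene chosen for its difference between the genotypes. In injured Lepr-ctrl nerves at 2 wpc its levels were 0, 0.0762, 0.147, 0.229 and 0.290 CPM (0 to 9 counts), and in injured Lepr-cKO nerves 0.319, 0.482, 0.514, 0.720 and 0.763 CPM (8 to 27 counts). At 4 wpc the injured Lepr-ctrl nerves had 0, 0.0871, 0.223 and 0.255 CPM (0 to 4 counts) and the injured Lepr-cKO nerves 0.551, 0.587, 0.711 and 1.02 CPM (9 to 20 counts). Every injured Lepr-cKO library was above every injured Lepr-ctrl library of its time, as the choice of the gene fixed, and the closest pair was 0.319 against 0.290 CPM at 2 wpc and 0.551 against 0.255 CPM at 4 wpc. A count of 0 allowed up to 0.142 CPM in animal SLRKO2wpc144 at 2 wpc and 0.282 CPM in animal WT-178 at 4 wpc, the latter above the highest measured value of its group. The log2 fold change was 1.83 at 2 wpc and 2.17 at 4 wpc. At 2 wpc it was 1.70 without animal SLRKO2wpc126 and 1.59 without animals SLRKO2wpc126, SLRKO2wpc135 and SLRKO2wpc144. The gene was chosen by these values, so all of them are a description and no check on the difference.

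In the healthy nerves, which the choice did not use, Gucy1a2 did not differ detectably between the genotypes. At 2 wpc the healthy Lepr-ctrl nerves had 0.207, 0.318, 0.341, 0.445 and 0.516 CPM and the healthy Lepr-cKO nerves 0.279 to 0.644 CPM with a median of 0.374 CPM, a log2 fold change of 0.28 (95% interval -0.53 to 1.08; adjusted p = 1). At 4 wpc they had 0.0895, 0.125, 0.148, 0.289 and 0.291 CPM against 0.183, 0.242, 0.259, 0.397 and 0.468 CPM, a log2 fold change of 0.66 (95% interval -0.27 to 1.59; adjusted p = 1). With injury, the group mean went from 0.365 to 0.148 CPM in Lepr-ctrl and from 0.440 to 0.560 CPM in Lepr-cKO nerves at 2 wpc, and from 0.189 to 0.141 CPM and from 0.310 to 0.716 CPM at 4 wpc. Within mice that gave both nerves, Gucy1a2 was higher in the injured nerve in 1 of 4 Lepr-ctrl and 3 of 5 Lepr-cKO mice at 2 wpc, and in 1 of 4 Lepr-ctrl and 4 of 4 Lepr-cKO mice at 4 wpc.

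Beside Gucy1a1, the other α subunit gene, Gucy1a2 remained minor. Its share of the summed RPKM of both α genes had a median of 2.40% (1.60 to 4.05%) in healthy and 2.67% (0 to 5.44%) in injured Lepr-ctrl nerves at 2 wpc, and of 3.19% (1.49 to 4.29%) and 6.10% (3.33 to 18.7%) in Lepr-cKO nerves. At 4 wpc the medians were 1.21% (0.862 to 2.85%) and 1.70% (0 to 8.88%) in Lepr-ctrl nerves, and 1.71% (1.31 to 3.97%) and 8.56% (7.22 to 12.9%) in Lepr-cKO nerves. The highest Lepr-ctrl share, 8.88%, was in animal WT-173, in which Gucy1a1 was lowest in its group at 2.40 CPM. The share thus moves with Gucy1a1 as well as with Gucy1a2, and shares from 0 to 27 counts carry a wide counting error.

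**Figure D4:**
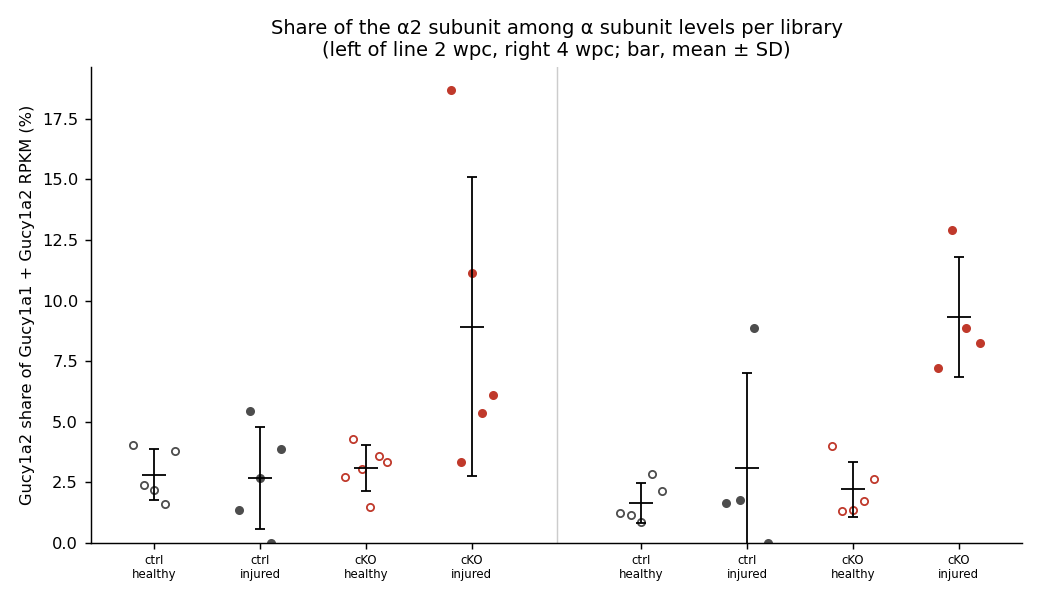
Gucy1a2 as a percentage of the summed RPKM of Gucy1a1 and Gucy1a2 in each library, by genotype and nerve, with 2 wpc left and 4 wpc right of the line. Open circles are healthy and filled circles injured nerves, and the bar is the mean ± SD. Injured Lepr-cKO nerves had 3.33 to 18.7% at 2 wpc and 7.22 to 12.9% at 4 wpc. Injured Lepr-ctrl nerves had 0 to 5.44% and 0 to 8.88%, and healthy nerves at most 4.29%. Gucy1a2 was chosen by its counts in injured nerves, so these shares are a description.

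The 5 genes with the pattern of group means most like that of Gucy1a2, by the root mean square difference of centred log2 CPM over 8 groups, were Srl, Des, Slc2a4, Inca1 and Glb1l2, with differences of 0.499 to 0.557 among 12787 genes ranked. Over the 39 libraries, their deviations from the group means gave Pearson's r of 0.132, 0.349, 0.185, -0.03 and 0.5 with those of Gucy1a2, in that order. So a like pattern of group means did not mean that libraries varied together. With a prior count of 0.5 in place of 2 in the log2 values, the mean log2 CPM of Srl was not above 1, so Srl was not ranked. The other genes named stayed among the first 5. Srl, Des and Slc2a4 are muscle genes, and their group means in injured Lepr-cKO nerves at 2 wpc contain animal SLRKO2wpc126: Srl was at 87.9 CPM there against 1.44 to 2.38 CPM in the 7 other groups. Glb1l2 rose and fell with less contrast, from 1.75 CPM in injured Lepr-ctrl nerves at 4 wpc to 6.23 CPM in injured Lepr-cKO nerves at 2 wpc. Its mean was also higher in healthy Lepr-cKO than in healthy Lepr-ctrl nerves, at 4.12 against 2.11 CPM at 2 wpc and 3.52 against 2.37 CPM at 4 wpc.

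None of the 8 other genes was called between the genotypes in injured nerves. At 2 wpc 0 of 8 were called, where 0.569% of all genes were, and at 4 wpc 0 of 8, where 0.45% of all genes were. With edgeR, 1 of the 8 (Nos1) passed an unadjusted p of 0.05 at 2 wpc and 0 did at 4 wpc. Among all 18442 genes, 1187 and 3667 did. DESeq2 called 0 at both times but gave no adjusted p for Nos1 at either, nor for Nos2 and Prkg2 at 4 wpc. At 2 wpc the largest estimates among them were those of Nos1 (1.49, 95% interval 0.49 to 2.49; adjusted p = 0.323), Nos2 (1.16, interval -0.29 to 2.60; adjusted p = 0.891) and Gucy1a1 (0.86, interval -0.02 to 1.74; adjusted p = 0.783), all on the log2 scale. Without animal SLRKO2wpc126 they were -0.10, -0.26 and 0.12. Pde5a had the narrowest interval, -0.34 to 0.40 around 0.03 at 2 wpc and -0.29 to 0.55 around 0.13 at 4 wpc, which leaves a difference of more than 1 on the log2 scale outside. At 4 wpc the largest estimate was that of Nos3, -0.79 (interval -1.89 to 0.30; adjusted p = 0.416), with 20.3 to 52.4 CPM in Lepr-ctrl and 6.87 to 37.3 CPM in Lepr-cKO nerves and an endothelial sum of 1082 to 1660 CPM and 514 to 1762 CPM. For the remaining genes at 4 wpc the estimates lay between -0.31 (Prkg2) and 0.26 (Nos1).

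In healthy nerves 0 of 9 genes were called at 2 wpc and 0 of 9 at 4 wpc, where 0.00542% of all genes were called at either time. Each had an adjusted p of 1 in edgeR, 0 of the 9 had an unadjusted p under 0.05 at either time, and DESeq2 called 0, with no adjusted p for Nos1. Among all 18442 genes, 222 at 2 wpc and 346 at 4 wpc had an unadjusted p under 0.05 with edgeR. At 4 wpc Pde5a had 22.0 to 30.0 CPM in healthy Lepr-ctrl and 30.1 to 33.3 CPM in healthy Lepr-cKO nerves, with an interval that includes 0 (log2 fold change 0.28, 95% interval -0.08 to 0.65). The genotype difference in the injury response was called for 0 of 8 genes at 2 wpc and at 4 wpc, where 0% of all genes were called at both times with edgeR (797 and 2013 genes had an unadjusted p under 0.05; DESeq2 called 2 and 4 genes). Of the 8 genes, 1 (Nos1) passed an unadjusted p of 0.05 at 2 wpc and 0 passed at 4 wpc, and DESeq2 called 0, again with no adjusted p for Nos1. The largest estimate was that of Nos1 at 2 wpc, 1.62 ± 0.652 (SE; adjusted p = 0.999), which was 0.03 without animal SLRKO2wpc126. So the calls for Gucy1a1 and Gucy1b1 with injury at 2 wpc, present in Lepr-ctrl and absent in Lepr-cKO nerves, were not shown to differ between the genotypes (differences of 0.66 ± 0.585 and 0.49 ± 0.436 SE; adjusted p = 0.999 for both).

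**Figure D5:**
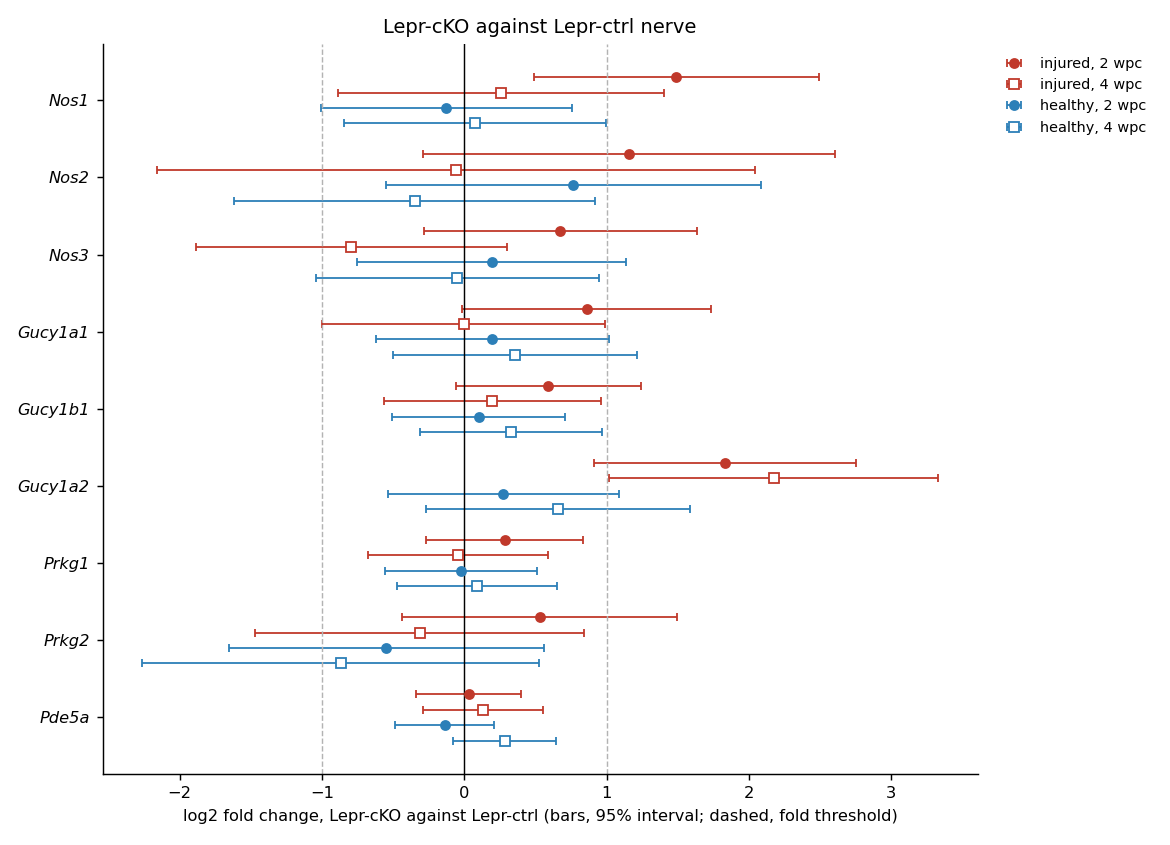
Genotype difference (Lepr-cKO over Lepr-ctrl, log2 fold change) of the 9 genes, with 95% intervals, in injured (red) and healthy (blue) nerves at 2 wpc (filled circles) and 4 wpc (open squares). Dashed lines mark a log2 fold change of 1 in either direction. Gucy1a2 in injured nerves, at 1.83 and 2.17, is shown for description since it was chosen by this difference, and its intervals there are no test. The intervals of the other genes include 0 except that of Nos1 in injured nerves at 2 wpc, which contains animal SLRKO2wpc126.

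Nerves at 4 wpc were compared with those at 2 wpc, which came from other mice, so time and cohort cannot be told apart. In injured Lepr-ctrl nerves 0 of 8 genes were called with edgeR (0 at an unadjusted p under 0.05, and 0 with DESeq2, which gave no adjusted p for Nos1), where 7.33% of all genes were. Among all 18442 genes, 6205 had an unadjusted p under 0.05 there with edgeR. In injured Lepr-cKO nerves 1 of 8 was called, against 5.29% of all genes. This was Nos3, lower at 4 wpc by a log2 fold change of -1.92 ± 0.528 (SE; adjusted p = 0.0113), with 6.87 to 37.3 CPM at 4 wpc and 19.8 to 181 CPM at 2 wpc. The groups overlapped, and the change was -1.18 and not called without animal SLRKO2wpc135, the library with 181 CPM, and -2.56 without animal KO-177 of 4 wpc. Nos1 changed sign with 1 library: it was -0.41 ± 0.508 (SE; adjusted p = 0.640), but 1.14 and called higher at 4 wpc without animal SLRKO2wpc126. Prkg1 was -0.89 ± 0.295 (SE; adjusted p = 0.0356), under the fold threshold, and was called without animal SLRKO2wpc125 (-1.13), animal SLRKO2wpc128 (-1.05) or animal KO-169 of 4 wpc (-1.30). In healthy nerves 0 of 9 genes were called in either genotype, where 0.174% of all genes were called in Lepr-ctrl and 0.119% in Lepr-cKO nerves. With edgeR, 1 (Nos2) had an unadjusted p under 0.05 in Lepr-ctrl and 0 in Lepr-cKO nerves, where 2969 and 1829 of all genes did. DESeq2 called 0 but gave no adjusted p for Nos1, Nos2, Prkg2 and Gucy1a2, so it is no check on Nos2. Nos2 had the largest estimate there, 1.60 ± 0.663 (SE; adjusted p = 0.209) in Lepr-ctrl nerves, from 3 to 29 counts per library.

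The wider pathway was followed through 60 further genes in 4 lists, of which 44 were tested. Fold changes are on the log2 scale and are given for Lepr-ctrl and Lepr-cKO nerves at 2 wpc and then for Lepr-ctrl and Lepr-cKO nerves at 4 wpc. In these 4 comparisons 19.8, 20.9, 20.1 and 16.8% of all genes were called higher and 14.3, 13.4, 15.9 and 10.8% lower, against which the counts of each list are to be read. Among 18 genes of arginine supply, cofactor synthesis and synthase binding, 5 were called higher and 4 lower with injury in Lepr-ctrl nerves at 2 wpc, with a list median of 0.17 against 0.08 over all genes. In the other comparisons the list had 6 higher and 4 lower, 6 higher and 3 lower, and 3 higher and 4 lower, with medians of 0.10, 0.07 and 0.08 against 0.10, 0.02 and 0.06 over all genes. Arg1, an arginase that uses the same substrate as the synthases, changed most, by 9.24, 6.89, 7.14 and 5.27, and its mean level in injured nerves was 190.1, 28.9, 14.3 and 9.17 CPM against 0.0943 to 0.328 CPM in healthy nerves. Without animals SLRKO2wpc126, SLRKO2wpc135 and SLRKO2wpc144, its changes at 2 wpc were 7.23 and 7.36. Ddah1, which degrades methylarginine inhibitors of the synthases, was called lower in all 4 (-3.17, -2.95, -3.27 and -2.54). Gchfr, the feedback regulator of tetrahydrobiopterin synthesis, was lower too (-3.34, -3.74, -3.33 and -2.19), as was the arginine transporter gene Slc7a2 (-2.77, -2.77, -2.02 and -1.73).

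Of 13 natriuretic peptide and membrane cyclase genes, 5 passed the filter, and 3 were called higher and 0 lower in every comparison with injury except Lepr-ctrl at 4 wpc, where 2 were higher and 2 lower. Their medians were 1.52, 1.70, 0.70 and 1.09 over these 5 genes. Npr1, the cyclase receptor for atrial natriuretic peptide, was called higher in all 4 (2.00, 2.10, 1.87 and 1.09). So was the membrane cyclase gene Gucy2c (2.59, 1.70, 2.42 and 2.27), at 0.346 to 0.509 CPM on average in injured nerves, but without the same 3 libraries its change in Lepr-cKO nerves at 2 wpc was 1.26 and not called. The 2 lower genes in Lepr-ctrl nerves at 4 wpc were Nppc, which encodes C-type natriuretic peptide (-1.45), and its receptor gene Npr2 (-1.16).

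Of 15 genes for other cyclic GMP phosphodiesterases, 12 were tested, and 5, 5, 5 and 4 were called higher and 2 lower in each comparison. Pde9a, whose enzyme is specific for cyclic GMP, was called higher in all 4 (1.65, 2.08, 2.57 and 1.94), and so was Pde1c, of a calcium and calmodulin-dependent enzyme (1.98, 1.82, 2.91 and 2.11). Pde11a (-2.61, -2.70, -1.25 and -1.15) and Pde6b, a photoreceptor enzyme gene (-2.49, -4.41, -4.04 and -2.50), were called lower in all 4. The 2 lower of 12 are close to the share of all genes called lower. Of 14 kinase target and gated channel genes, 9 were tested, with 4, 4, 3 and 1 called higher and 2, 2, 2 and 3 lower, of which 1 of 9 higher and 2 of 9 lower are near the shares over all genes. Rgs2, a regulator of G-protein signalling and a substrate of the type I kinase, was called higher in all 4 (2.71, 2.72, 3.36 and 2.90). The channel gene Cnga2 (-2.37, -3.06, -1.08 and -1.28) was called lower in all 4. No gene of the 4 lists was called between the genotypes with edgeR, in injured or in healthy nerves at either time, or for the genotype difference in the injury response. Of the 44, 5 and 8 had an unadjusted p under 0.05 in injured nerves at 2 and 4 wpc, 0 and 2 in healthy nerves, and 2 and 4 for the difference. Among all 18442 genes, 1187 and 3667 did in injured nerves, 222 and 346 in healthy nerves, and 797 and 2013 for the difference. Without animals SLRKO2wpc126, SLRKO2wpc135 and SLRKO2wpc144, 23 in place of 25 of the 44 genes were called with injury at 2 wpc in Lepr-ctrl and 22 in place of 26 in Lepr-cKO nerves, 23 and 21 of them being called in both fits, and 0 were called between the genotypes.

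Between 2 and 4 wpc, 6 of the 44 genes were called in injured Lepr-ctrl nerves, where 7.33% of all genes were, and 4 of 44 in injured Lepr-cKO nerves, where 5.29% were, 8 different genes in all. Pde11a and Cnga2 were higher at 4 wpc in both genotypes, by 1.85 ± 0.323 (SE; adjusted p = 0.000103) and 1.34 ± 0.266 (SE; adjusted p = 0.000470) in Lepr-ctrl nerves. Arg1 was lower at 4 wpc in Lepr-ctrl nerves, by a log2 fold change of -3.74 ± 0.886 (SE; adjusted p = 0.00259), and Nos1ap, whose protein binds NOS1, was higher there (2.47 ± 0.577 SE; adjusted p = 0.00228). Without the 3 libraries of 2 wpc the change of Arg1 was -1.74 in Lepr-ctrl nerves, where all 6 calls remained and Npr3 was added. In Lepr-cKO nerves only 2 of the 4 calls remained, since Ass1 and the channel gene Cngb1 lost theirs. Arg1 (-2.15), Nos1ap (1.96) and Gchfr gained a call there, which made 5. No gene of the lists was called between the times in healthy nerves, where 3 of 44 had an unadjusted p under 0.05 in each genotype. Among all 18442 genes, 2969 did in Lepr-ctrl and 1829 in Lepr-cKO nerves.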

How the data were processed

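The endoneurial RNA libraries were made with an unstranded Illumina kit. The authors deposited raw read counts per gene, and per the labels and the study's methods they aligned single reads with STAR 2.5 to GRCm38 and counted them with featureCounts 1.5.0-p1 after bcl2fastq 2.20.0.422; the strand and multimapping settings are not given in the sources used here. Counts of 55573 genes in 39 libraries were analysed in R 4.3.3 with edgeR 4.0.16: TMM normalization, a filter by group (minimum count 10, minimum total 15), and a quasi-likelihood test over 8 groups and 18442 genes, with Benjamini-Hochberg adjustment. A gene was called when its adjusted p was below 0.05 and its log2 fold change exceeded 1 in size, the study's thresholds. Standard errors were taken from the F statistic, and 95% intervals used 31 residual degrees of freedom. CPM used TMM factors, log2 CPM a prior count of 2, and RPKM the exon length of GENCODE mouse release 21. At the smallest total, 1 CPM is 10.9 counts. A limit for a count of 0 is 3 counts and covers counting error only.

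Groups came from the sample titles. Named genes were the 9 members, list genes called in a comparison (at most 4 per list and comparison, by absolute log2 fold change), the 5 genes with a mean log2 CPM above 1 that were nearest to Gucy1a2, genes whose exons overlap a member, and Lepr. The members, lists and comparisons were chosen with earlier results of these data known. The labels do not say that samples of a group differ in litter or day, so p-values measure only the spread between these libraries. In the main fit that spread was taken over all 8 groups, and the 2 nerves of a mouse were treated as independent. The 2 nerves of a mouse share an animal number in the titles (17 pairs). Their deviations from the group means correlated at -0.064 to 0.262 over 18442 genes, above 0.1 in 11 of 17 pairs, and all 17 pairs matched in sex by Xist and Ddx3y. Because a number marks a mouse, comparisons between nerves were also fitted with mouse as a block. Calls were further recomputed with DESeq2 1.42.0, with its size factors, with normalization that ignored mitochondrially encoded genes, without a filter, with 10 or more counts required in all libraries, with sex in the model, on only the groups compared, without the fold threshold, and with single libraries removed. Leaving out animals SLRKO2wpc126, SLRKO2wpc135 and SLRKO2wpc144 together was added after seeing the data. The fit was tested on simulated data. Correlations used 100000 permutations within groups, after adding 0.1 to library measures on the log2 scale.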

Additional observations from a re-analysis of the deposited data

Results flagged for a closer look

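A library was picked out when the gap between the highest or lowest value of a group and its nearest neighbour, divided by the range of the group, exceeded the 95% critical value of Dixon's test. Of 72 groups of 4 to 6 libraries tested, 8 had such a value. For independent groups of normal values, chance gives about 1 in 20, that is 3.6. The groups of the 9 genes reuse the same 39 libraries, so 8 against 3.6 does not measure an excess. Among injured Lepr-cKO nerves at 2 wpc, animal SLRKO2wpc126 was picked out as a high value for 5 genes. It had 23.2 CPM of Gucy1a1, where the next library had 7.77 CPM, and 14.98 CPM of Gucy1b1, where the next had 6.26 CPM. Nos1 was at 18.0 CPM against 1.99 CPM in the next library. Nos2 was at 1.19 CPM against 0.289 CPM, and Pde5a at 19.98 CPM against 11.9 CPM. The same library held 46686 CPM of skeletal muscle markers and 1013 CPM of pericyte and smooth muscle markers, and the part of either in these values was not tested. In healthy Lepr-cKO nerves at 4 wpc, animal KO-176 had 27.3 CPM of Nos1, with the next at 20.8 CPM. Among injured Lepr-cKO nerves at 4 wpc, animal KO-169 had 31.8 CPM of Prkg1, with the next at 15.8 CPM, and 2.95% mitochondrially encoded counts, the lowest share of any injured library. Healthy Lepr-ctrl animal SLRKO2wpc120 at 2 wpc had 0.819 CPM of Prkg2, with the next at 0.217 CPM.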

How the results depend on the processing

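Over the 9 genes and 14 comparisons, 1019 alternative values other than those without 1 library kept their side of the threshold. Of the others, 10 gained a call, 4 lost one and 1 reversed. With 1 library left out, 1383 kept their side, 11 gained a call, 9 lost one and 1 reversed. For Gucy1a2 with injured nerves, which has no test, keeping meant a value within 1 SD of the main one. A change of sign counted as reversed only where a call was involved. In all, 107 values over 45 results changed sign, with main values of up to 1.62 in size. The value of Nos1 in injured Lepr-cKO nerves at 4 against 2 wpc reversed to 1.07 without animals SLRKO2wpc126, SLRKO2wpc135 and SLRKO2wpc144, and ranged from -0.92 to 1.14 with 1 library left out. With the groups compared only, the number of called genes went from 1 to 0 for injured Lepr-cKO nerves at 4 against 2 wpc (Nos3, -1.96) and from 0 to 1 for healthy Lepr-ctrl nerves (Nos2, 1.60), Nos1 lost its call with injury in Lepr-cKO nerves at 2 wpc (-1.39), and Nos2 gained one at 4 wpc (-1.82). With an adjusted p alone, 2 genes were called for injured Lepr-cKO nerves at 4 against 2 wpc, Prkg1 being added, and Gucy1b1 was called with injury in Lepr-cKO nerves at 2 wpc. Without animals SLRKO2wpc126, SLRKO2wpc135 and SLRKO2wpc144, Nos3 lost its call in injured Lepr-cKO nerves at 4 against 2 wpc (-1.22), and Gucy1a1 (-1.60) and Gucy1b1 (-1.34) were called with injury in Lepr-cKO nerves at 2 wpc. DESeq2 called Nos2 with injury in Lepr-cKO nerves at 4 wpc (-1.85) and gave no adjusted p in 23 cases, including Nos1 in all 14 comparisons. The cause of these changes was not tested.

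With 1 library left out, the number called with injury ranged from 6 to 7 in Lepr-ctrl and from 5 to 8 in Lepr-cKO nerves at 2 wpc, and from 3 to 7 and from 4 to 7 at 4 wpc. It ranged from 0 to 2 for injured Lepr-cKO nerves at 4 against 2 wpc and stayed at 0 in the 9 other comparisons. With the animal as a replicate block, 6 and 7 of 8 genes were called with injury in Lepr-ctrl and Lepr-cKO nerves at 2 wpc, 6 and 6 at 4 wpc, and 0 for both differences between genotypes. The pairing changed the calls of Gucy1a1 and Gucy1b1 in Lepr-cKO nerves and of Prkg1 in Lepr-ctrl nerves, as given above, and no other call. The genotype and time comparisons are between different mice and cannot be blocked.

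Over all genes, the 105 calls between genotypes in injured nerves at 2 wpc were 22 with DESeq2, 207 without a filter, 19 with at least 10 counts in every library, 0 with the groups compared only and 1 without animals SLRKO2wpc126, SLRKO2wpc135 and SLRKO2wpc144. The 83 calls at 4 wpc were 241 with an adjusted p alone, 129 with DESeq2, 51 with its size factors, 40 without a filter, 44 with at least 10 counts, 41 with a term for sex and 0 with the groups compared only. For 4 against 2 wpc in injured nerves, the 1351 (Lepr-ctrl) and 976 (Lepr-cKO) calls became 3916 and 2732 with an adjusted p alone, 611 and 468 with at least 10 counts, and 779 and 105 with the groups compared only. The calls with injury, 6289 and 6330 at 2 wpc and 6630 and 5084 at 4 wpc in Lepr-ctrl and Lepr-cKO nerves, were 11793, 12014, 11721 and 10207 with an adjusted p alone and 3417, 3314, 3759 and 2653 with at least 10 counts. Between times in healthy nerves, 32 and 22 calls were 302 and 54 with an adjusted p alone, and 88 and 48 with DESeq2, and both rose with the groups compared only, to 87 in Lepr-cKO nerves. Between genotypes in healthy nerves the 1 call at each time was 8 and 9 with DESeq2. Depth limits Nos2, Prkg2 and Gucy1a2, whose libraries hold from 0 to 99 counts.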
